A study of Caenorhabditis elegans with 4 samples.

Results

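Chromosome II carried 1016 of the 9051 RNA polymerase II (Pol II) regions in the list that the authors called on both ChIP replicates merged. These are all regions of that combined list whose chromosome is II. The replicate 1 list held 759 regions on this chromosome of 7359 in all, and the replicate 2 list held 778 of 7115. Regions are given by WS220 coordinates and a q-value each, with no gene names in the lists. No sequence is printed, because no WS220 genome was used here. The chromosome was followed over 15264301 bp, up to the end of the last region in any list. It was divided into 3 parts of equal length, with the centre from 5088101 to 10176201, and each region was placed in the centre, the left arm or the right arm by its midpoint.

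The regions come from chromatin immunoprecipitation and sequencing of whole C. elegans hermaphrodites at larval stage L3, the next to last larval stage, kept at 20 °C and crosslinked with 2% formaldehyde. The antibody, 8WG16, recognises the heptapeptide repeats that end AMA-1, the largest Pol II subunit. All 4 samples, 2 Pol II ChIP and 2 input, share 1 labelled strain, OP54. Its animals carry unc-119(ed3), an allele on chromosome III, together with wgIs54, a transgene introduced by bombardment that holds unc-119(+) and egl-5 fused to TY1, EGFP and 3xFLAG. The labels disagree on this point: elsewhere they describe a fusion of EOR-1, and OP81 is the strain in the deposited sample table. The transgene is therefore uncertain, and the antibody does not target it. Whole animals were used, so a region may come from any tissue and its q-value does not tell how many cells carry Pol II there. Uniquely mapped reads numbered 3262273 in ChIP replicate 1 and 4623128 in ChIP replicate 2, and the inputs enter only as the control behind the lists. Nothing in the labels says that the replicates came from separate cultures, so the spread between them may be technical.

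Pol II transcribes all protein-coding genes and many small nuclear and other noncoding RNAs. In C. elegans the centres of the autosomes are dense in conserved, widely expressed genes. The arms recombine more often, are richer in repeats, carry more histone H3 lysine 9 methylation and hold many fast-evolving gene families. The centre and arms used here are parts of equal length. They were not set at the borders of these domains, which were not located. The lists give Pol II occupancy under 8WG16 along the chromosome, and transcription itself was not measured.

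Pol II regions covered 1.00 Mb of chromosome II in the combined list, or 6.56% of its length. Replicate 1 covered 0.922 Mb (6.04%) and replicate 2 covered 0.629 Mb (4.12%), with a mean of 5.08% ± 1.36 (SD, n = 2). The replicates differed far less in the number of regions (768.5 ± 13.4) than in their width, where the medians were 641 bp for replicate 1 and 442 bp for replicate 2. Replicate 1, which had fewer uniquely mapped reads, had the wider regions. The combined median was 481 bp, with quartiles of 258 and 1100 bp. The widths ran from 1 bp to 11452 bp, and 47 regions (4.63%) were narrower than a 36-base read. The 107 broad regions, here those of at least 2500 bp, made up 10.5% of the regions and held 45.8% of the covered bases.

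Among the 6 nuclear chromosomes, II stood between the dense I, III and IV and the sparse V and X in region density and width. It ranked the fourth in regions per Mb (66.6) and the third in median width in each of the 3 lists. Chromosome V held 47.0 regions per Mb and X held 53.5. In covered share II ranked the fifth in the combined list and in replicate 1 and the fourth in replicate 2. The combined ranks of II and X rest on 6.558% against 6.560%. X was covered to 6.19% in replicate 1 and 4.01% in replicate 2, against 6.04% and 4.12% for II. These ranks were not tested, since 1 chromosome has no replicate.

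**Figure D1:**
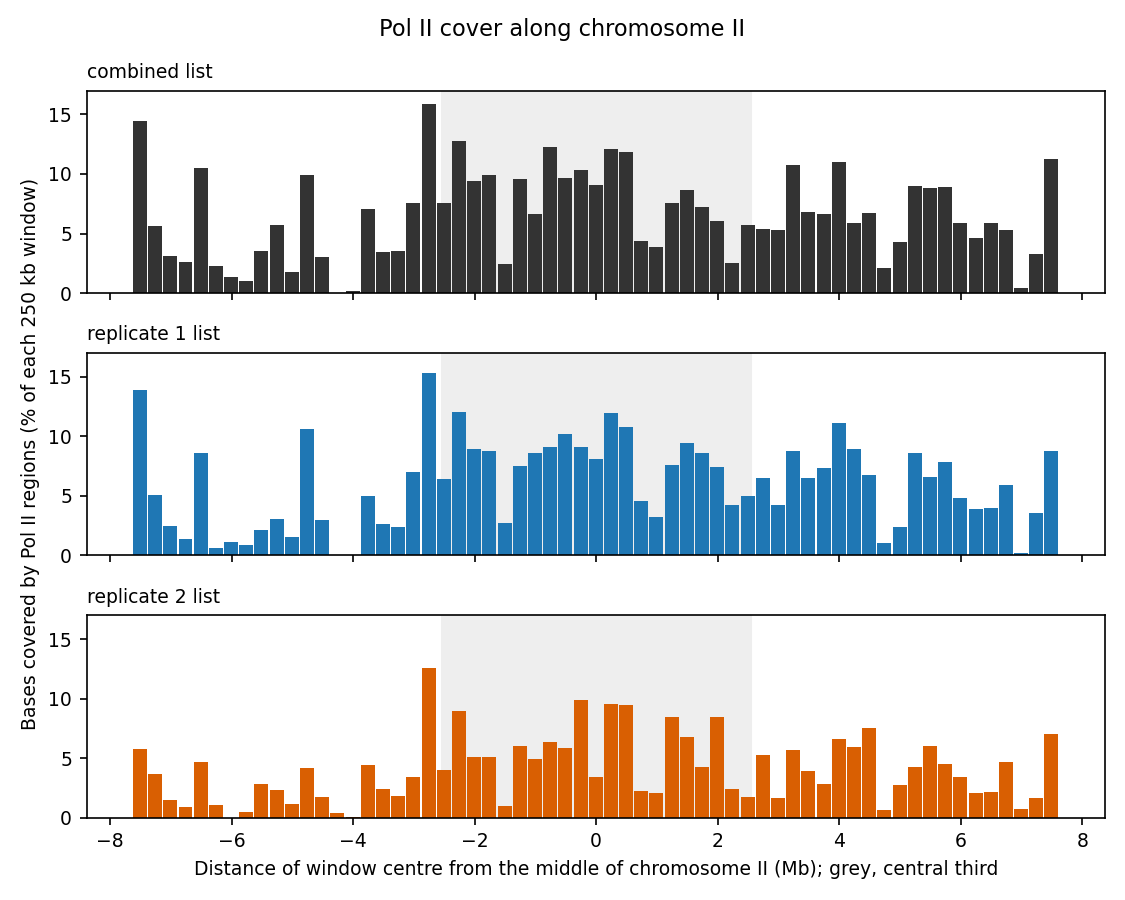
Percent of bases covered by Pol II regions in each full 250 kb window of chromosome II (y axis) against the distance of the window from the middle of the chromosome in Mb (x axis), with 1 panel per list and the centre in grey. The left arm holds isolated high windows between low ones, some of which, such as 2.58% and 2.24% (combined), are near the lowest centre window. That centre window is at 2.42% (combined), 2.71% (replicate 1) and 0.967% (replicate 2). The lowest left-arm window is at 0% (combined), 0% (replicate 1) and 0.016% (replicate 2).

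The centre of chromosome II was covered to 8.08% in the combined list, the right arm to 6.40% and the left arm to 5.19%. Replicate 1 gave 7.86%, 5.85% and 4.41% in the same order. Replicate 2 gave 5.65%, 3.92% and 2.79%. The order of the parts was the same in each list, although the levels of replicate 2 lay below those of replicate 1 throughout. The centre exceeded both arms pooled by 2.28 points in the combined list. The excess was 2.73 points in replicate 1 and 2.30 points in replicate 2. The mean difference of 2.52 points ± 0.305 (SD, n = 2) was larger than the spread between replicates. With 2 replicates no test across samples was made. Among the 6 chromosomes, the difference ranked the second in the combined list, the third in replicate 1 and the first in replicate 2, with chromosome V highest in the combined list and replicate 1 (3.28 and 3.58 points).

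The arms were not alike. The right arm held 364 combined regions (71.5 per Mb) and the left arm 172 (33.8 per Mb), with 480 in the centre (94.3 per Mb). Replicate 1 listed 113 regions in the left arm and 274 in the right, and replicate 2 listed 144 and 268. The right arm exceeded the left in covered share by 1.44 points in replicate 1 and by 1.13 points in replicate 2 (mean 1.29 ± 0.223, SD, n = 2). That excess was larger than the spread between the replicates. The contrast was stronger in the number of regions than in covered bases, because left-arm regions were wider.

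**Figure D2:**
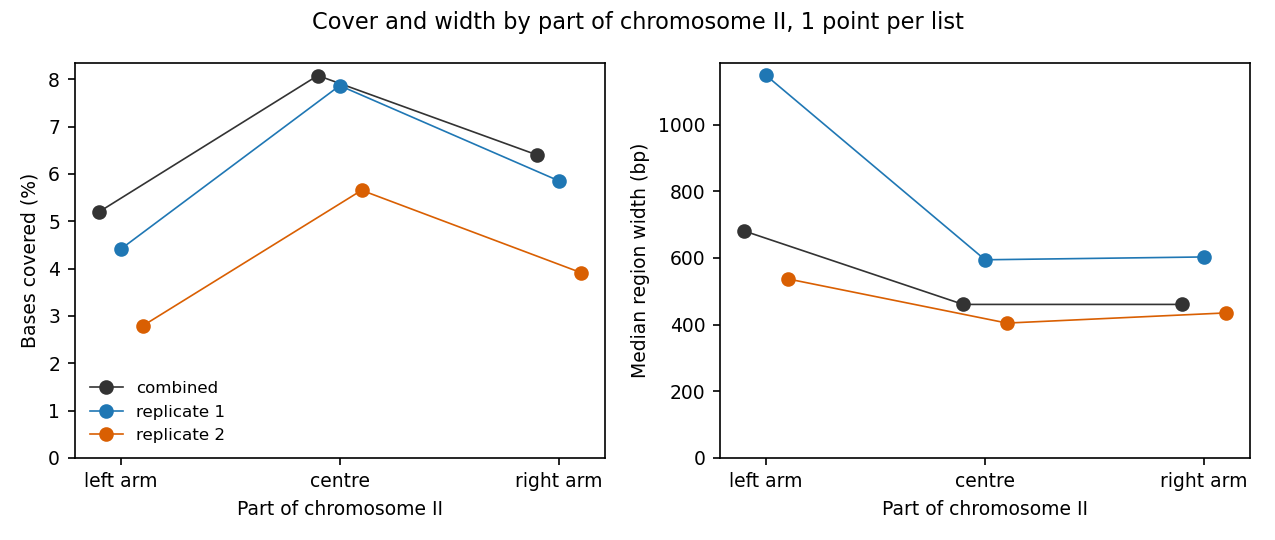
Covered share in percent (left panel) and median region width in bp (right panel) for the 3 parts of chromosome II, with 1 point for each list and a line joining the parts of a list. The centre is highest in cover and the left arm highest in width in all 3 lists.

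The median left-arm region measured 681 bp in the combined list, against 460.5 bp in both the centre and the right arm. In replicate 1 the medians were 1148 bp in the left arm, 594.5 bp in the centre and 603 bp in the right arm. In replicate 2 they were 537, 404.5 and 435 bp. The left arm had the highest median in each list, but the size of the excess differed between the replicates. It was 553.5 bp over the centre in replicate 1 and 132.5 bp in replicate 2, a mean of 343 bp ± 298 (SD, n = 2), so only its direction is shared.

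Broad regions were more frequent there. They made up 37 of the 172 left-arm regions of the combined list (21.5%, Wilson 95% interval 16.0 to 28.2), 39 of 480 in the centre (8.13%, interval 6.0 to 10.9) and 31 of 364 in the right arm (8.52%, interval 6.06 to 11.8). The intervals cover counting error only. In replicate 1 the shares were 31.0%, 12.4% and 13.1%, and in replicate 2 they were 11.8%, 6.28% and 4.10%. Of the covered bases in the left arm, 64.9% lay in broad regions, against 38.6% in the centre and 39.4% in the right arm. In the same order the shares were 74.2%, 46.0% and 44.2% in replicate 1 and 43.5%, 32.7% and 22.8% in replicate 2. The combined list lacks strong replicate regions, described below, with median widths of 5090 bp (replicate 1) and 4097.5 bp (replicate 2). Of these, 1 of 15 and 2 of 24 lay in the left arm. What their absence does to the combined shares was not measured.

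Left-arm broad regions also had weaker q-values at the median, though q at equal width was not compared. Their median width was the largest of the parts in the combined list (4071 bp) and replicate 1 (4134 bp). In replicate 2 it was the smallest (3392 bp, against 3737 bp in the centre and 3646 bp in the right arm). Their median −log10 q was 43.5 in the combined list, against 97.2 in the centre and 85.3 in the right arm. The replicate 1 medians were 30.2, 72.5 and 53.8, and the replicate 2 medians were 39.3, 99.3 and 118 over only 17, 23 and 11 regions. The left arm was lowest in each list. Broad regions with q of 1e-20 or more numbered 10 of 37 in the left arm (27.0%, interval 15.4 to 43.0), 3 of 39 in the centre (7.69%, interval 2.65 to 20.3) and 0 of 31 in the right arm (interval up to 11%). In replicate 1 they numbered 11 of 35, 4 of 46 and 4 of 36, and in replicate 2 they numbered 2 of 17, 1 of 23 and 1 of 11, where the counts are too small to order the parts. A similar share stood on the right arm of chromosome V, 7 of 27 in the combined list (25.9%), so the pattern is not shown to be particular to chromosome II. Across all 1016 combined regions width and −log10 q ranked together (Spearman's rho = 0.711, a description over regions of the same libraries).

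**Figure D3:**
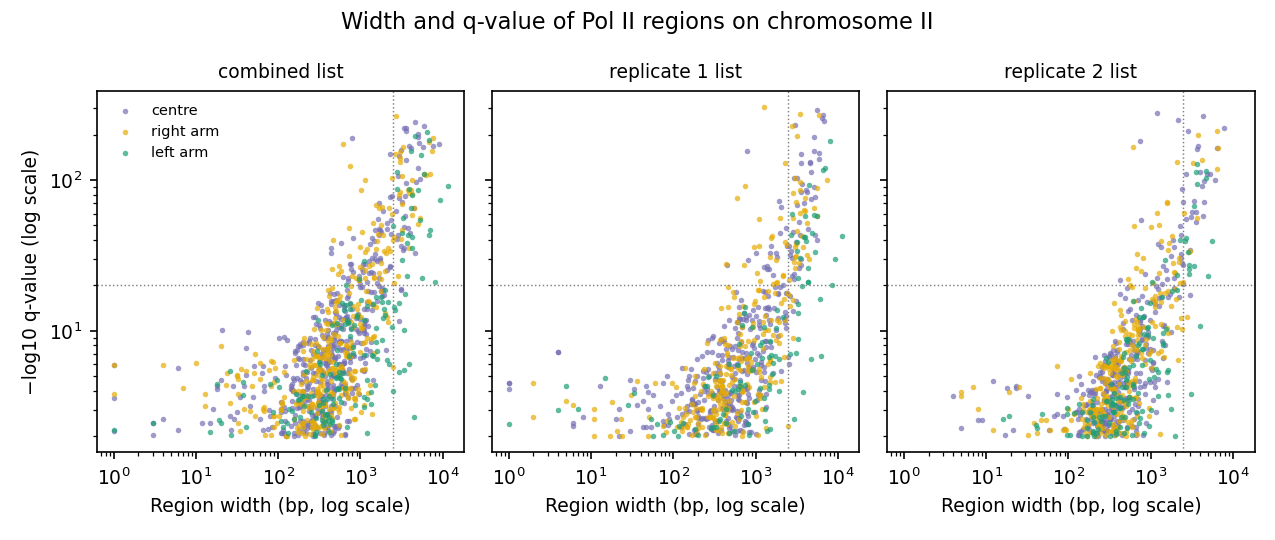
Width in bp (x axis, log scale) and −log10 q-value (y axis, log scale) of every Pol II region of chromosome II, with 1 panel per list and a colour for each part. Dotted lines mark 2500 bp and q = 1e-20, and of the points to the right of the first line and below the second, the left arm holds 10 of 13 (combined), 11 of 19 (replicate 1) and 2 of 4 (replicate 2).

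Long stretches of the left arm held no region at all. The longest gap between neighbouring combined regions ran from 1772123 to 2231551 and measured 459 kb. The same stretch was empty from 1771959 to 2231013 in replicate 1 (459 kb) and from 1769106 to 2232275 in replicate 2 (463 kb). Its left border thus lay within 3.02 kb and its right border within 1.26 kb in the 3 lists. The second longest gap lay between 3532582 and 3896877 (364 kb) and the third between 3214621 and 3523640 (309 kb). In replicate 1 these formed 1 empty stretch of 682 kb, from 3214459 to 3896899. Replicate 2 listed a 200 bp region between them and 2 further regions, of 833 and 220 bp, inside the third gap. The fourth gap lay between 873870 and 1140699 (267 kb) and the fifth between 1505874 and 1767412 (262 kb). Neither replicate listed any region inside the fourth or the fifth gap.

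Gaps of at least 100 kb numbered 11 in the combined list, of which 8 lay in the left arm, 1 in the centre and 2 in the right arm. Replicate 1 had 11, 3 and 5 of them in the same parts, and replicate 2 had 11, 2 and 2. The 8 left-arm gaps of the combined list summed to 2.04 Mb, against 0.121 Mb in the centre and 0.277 Mb in the right arm. Only 6 replicate regions lay wholly inside the 11 gaps, 1 of replicate 1 and 5 of replicate 2. They were 40 to 833 bp wide, with q between 0.00223 and 0.00950, near the limit of 0.01 that all listed values stay below. In stretches empty in all 3 lists, 10 of at least 100 kb remained, 7 of them in the left arm with 1.82 Mb. Chromosome II ranked the third among the 6 chromosomes in the share of its length in such gaps in every list, after V and X, with 16.0% in the combined list against 29.9% and 16.7%. How much of these stretches short reads can map to uniquely was not tested, and an empty stretch is not shown to be free of Pol II.

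Between the gaps stood islands of Pol II. From the first to the last left-arm gap of at least 100 kb (873870 to 3896877, 3.02 Mb) the combined list held 46 regions, or 15.2 per Mb, with a median width of 1355.5 bp. Replicate 1 listed 27 regions there with a median of 1933 bp, and replicate 2 listed 42 with a median of 772.5 bp. To the left of this span, up to the chromosome end, the combined list had 54.9 regions per Mb and 7.37% cover, with 6.53% in replicate 1 and 3.38% in replicate 2. To its right, up to the centre, it had 65.5 per Mb and 8.54%, with 7.40% and 5.40% in the replicates. The span itself was covered to 3.24%, 2.62% in replicate 1 and 1.58% in replicate 2. The span and the islands named below were chosen after their values were seen, from the gaps in the combined list.

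The most isolated strong island was a single region at 3208750 to 3214620, 5871 bp wide with q = 7.16e-110, with a gap of 131 kb on its left and the 309 kb gap on its right. It was found again in replicate 1 (5651 bp, q = 2.78e-58), and in replicate 2 as 2 regions, the stronger with q = 3.85e-40. The longest island, 2451040 to 3078099 (627 kb), held 20 combined, 14 replicate 1 and 17 replicate 2 regions, the lowest q being 2.16e-113, 7.50e-60 and 8.98e-42. It is 1 island only in the combined list, since each replicate has 2 gaps of over 100 kb wholly inside it. The island between the fifth and the longest gap, 1767413 to 1772122, was weak, with a lowest q of 1.54e-13 (combined), 1.07e-04 (replicate 1) and 2.67e-06 (replicate 2). The island between the second and the third gap, 3523641 to 3532581, consisted of 2 combined regions of 250 and 127 bp, with q no lower than 0.00131. Replicate 1 had nothing there, so those 2 gaps can be read as separate only from weak regions.

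The long stretches were few among the gaps. All gaps on the chromosome, long ones included, had a median of 4246 bp (combined), 5087.5 bp (replicate 1) and 6804 bp (replicate 2), and no gap was shorter than 200 bp. The combined median was longer than those of chromosomes I (2220 bp), III (2167 bp) and IV (1674.5 bp) and shorter than those of V (5351.5 bp) and X (6327.5 bp). By part, the combined medians were 7480.5 bp in the left arm, 3586 bp in the centre and 4354 bp in the right arm. Those of replicate 1 were 9884, 4348 and 4667 bp, and those of replicate 2 were 10055, 6060 and 6398.5 bp. In each list the left arm had the longest median gap and the centre the shortest, while the centre and right arm of 1 list were closer to each other than the same part in the 2 replicates. Regions less than 1000 bp apart formed 176 runs that took in 435 combined regions (42.8%). The share in runs was 30.8% in the left arm, 45.2% in the centre and 45.3% in the right arm, and it was lowest in the left arm in both replicates too (23.0% and 24.3%). The longest run, 12 regions over 19.6 kb, lay near the right end of the chromosome at 15202436 to 15222065. Replicate 1 had its own longest run of 7 regions in the same place, and replicate 2 had its longest runs, of 5 regions, elsewhere.

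**Figure D4:**
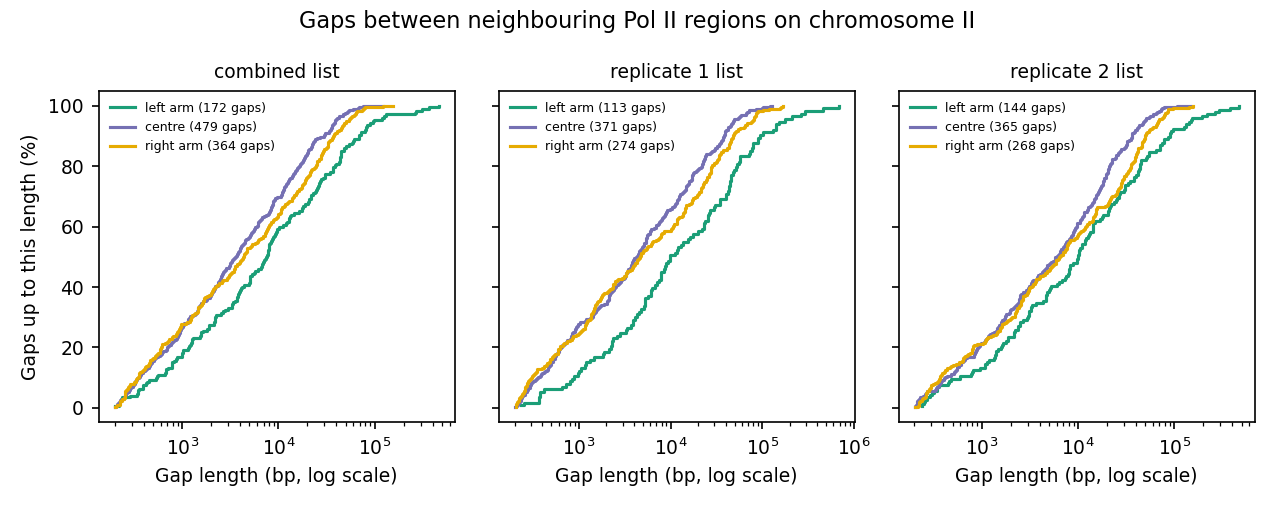
Cumulative share of gaps between neighbouring Pol II regions (y axis, percent) up to a given length (x axis, bp on a log scale) for the 3 parts of chromosome II, with 1 panel per list. The left-arm line lies to the right of the others over most of its length in every list, and the longest gaps are all its own, reaching 459429 bp in the combined list.

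The fullest 250 kb window was 4750001 to 5000000, at the inner edge of the left arm, with 15.8% of its bases covered (15.3% for replicate 1 and 12.6% for replicate 2). It ranked the first in all 3 lists. The next was the left end of the chromosome, 1 to 250000, with 14.5% in the combined list and 13.9% in replicate 1, but 5.79% in replicate 2, where it ranked 17 of 61. The third was 5250001 to 5500000 in the centre (12.8%, 12.0% and 8.95%). The emptiest were 3250001 to 3500000 with no combined region, 3500001 to 3750000 (0.151%) and, in the right arm, 14500001 to 14750000 (0.468%). Replicate 1 gave 0%, 0% and 0.20% for these windows, and replicate 2 gave 0.421%, 0.0800% and 0.770%. Over the 61 full windows the covered shares of the replicates ranked alike (Spearman's rho = 0.885), as a description over windows that share libraries, input and mappable sequence. Replicate 1 was higher in 51 of the 61.

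Of the 10 lowest q-values in the combined list 7 lay in the centre, which held 47.2% of all its regions, 2 in the left arm and 1 in the right arm. Among the 89 combined regions with q below 1e-50 the centre had 36, the right arm 37 and the left arm 16. The centre had 29 of 62 such regions in replicate 1 and 27 of 47 in replicate 2. These ranks and counts hold among the listed regions only. Of these strong replicate regions, 15 of replicate 1 and 24 of replicate 2 overlapped no combined region, as described below. On the nuclear chromosomes no q-value lay below 5.37e-306 (combined), 8.45e-307 (replicate 1) or 1.69e-302 (replicate 2). Whether the scale of q ends there was not tested. The lowest combined q-value belonged to the right arm, 14865256 to 14867971 (2716 bp, q = 1.24e-267), with 2 more regions and then a gap of 155 kb that begins 2057 bp further on. Replicate 1 listed almost the same bases with q = 7.44e-231. Replicate 2 split the place into 2 regions that covered 54.4% of it, the stronger with q = 6.55e-16. This is the most uneven pair of values among the 10.

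In the centre, the region at 6587058 to 6591632 (4575 bp, q = 2.54e-242) had q = 2.96e-132 in replicate 1 and q = 1.42e-91 in replicate 2. The region at 7349648 to 7353021 (q = 8.68e-223) went the other way, with q = 1.01e-53 in replicate 1 and q = 2.11e-162 in replicate 2. The 5 remaining central regions began at 7391855, 8930754, 9160286, 5570524 and 9643275. Their combined q lay between 2.83e-229 and 7.91e-195, and each was 1 region in replicate 1 and 1 to 3 regions in replicate 2. In the left arm, 4887549 to 4892172 (q = 2.79e-197) was nearly even, with q = 4.48e-93 in replicate 1 against 3.86e-95 in replicate 2. The other left-arm region, 216534 to 223064 (6531 bp, q = 2.97e-209), had q = 7.25e-118 and q = 2.94e-68.

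Of the 5 widest combined regions 3 lay in the left arm. The widest, 3951216 to 3962667, measured 11452 bp with q = 1.20e-91 and began 54.3 kb to the right of the second longest gap. It was 1 region of 11141 bp in replicate 1 (q = 3.05e-43) and 3 regions in replicate 2 that covered 69.7% of it. The region at 1232725 to 1241888 (9164 bp, q = 5.15e-74) was found whole in replicate 1 (q = 7.16e-31) and over 60.3% of its length in replicate 2 (q = 5.31e-40). The third left-arm region, 2283221 to 2291209 (7989 bp), had q = 1.11e-21 only. It was covered to 78.2% in replicate 1 and to 26.7% in replicate 2. The remaining pair was 7885615 to 7894659 in the centre (9045 bp, q = 1.51e-175) and 12792777 to 12800363 in the right arm (7587 bp, q = 5.93e-191), which are far stronger at similar width. The first combined region of the chromosome, 18458 to 25318, was itself strong (6861 bp, q = 1.49e-186). Replicate 1 held it whole with q = 2.95e-121, and replicate 2 as 3 regions over 58.3% of it with q = 3.17e-30 at best. The last, region, 15264136 to 15264301, was weak (166 bp, q = 5.58e-04). At the borders of the centre, the nearest regions were 5081182 to 5081915 outside and 5092090 to 5093030 inside on the left, and 10173533 to 10174716 inside and 10197158 to 10197378 outside on the right. Their q-values lay between 1.01e-10 and 2.43e-05.

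The replicates were then compared region by region. Of the 759 replicate 1 regions on chromosome II, 456 overlapped a replicate 2 region by at least 1 bp (60.1%, Wilson 95% interval 56.6 to 63.5), against 57.8% of replicate 1 regions on all chromosomes. In the other direction 543 of 778 overlapped (69.8%, interval 66.5 to 72.9), against 72.4% on all chromosomes. Both shares on chromosome II lie near the background. Among the parts, 64.6%, 58.1% and 60.9% of replicate 1 regions overlapped in the left arm, the centre and the right arm, and 66.7%, 69.4% and 72.0% of replicate 2 regions. The Wilson intervals of the parts, which cover counting error only, overlap in each direction, and a difference between the parts was not tested. In bases, the replicates shared 458 kb, or 49.7% of the cover of replicate 1 and 72.9% of that of replicate 2.

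Overlap rose with width in replicate 1 but not throughout in replicate 2. Replicate 1 regions under 250 bp overlapped replicate 2 in 33 of 157 cases (21.0%), those from 250 bp to under 1000 bp in 53.5%, those from there to under 2500 bp in 85.9% and those of 2500 bp or more in 113 of 117 cases (96.6%). A wide region meets another more easily by chance, and that share was not measured. For replicate 2 the shares were 50.6%, 71.0%, 87.4% and 82.4% in the same order. The widest replicate 2 class thus lay below the class before it. By q-value, the overlap of replicate 2 was 55.5% in the weakest class (q of 1e-05 or more), rose to 96.5% between 1e-50 and 1e-20, and was 64.0% (16 of 25) below 1e-100. The 9 regions without a partner in that strongest class were all absent from the combined list too. On the other 5 chromosomes the strongest replicate 2 class also overlapped less often than the middle ones, with 72 of 134 (53.7%). In replicate 1 the overlap went from 37.2% in the weakest class to 26 of 28 (92.9%) in the strongest, which on the other chromosomes was 287 of 291 (98.6%).

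Where the replicates overlapped, replicate 2 regions mostly sat inside replicate 1 regions. Pairs were formed of regions that have their largest overlap with each other, which gave 446. In them replicate 2 lay wholly inside replicate 1 in 268 cases (60.1%) and the reverse held in 29 (6.50%). The replicate 1 region was wider in 377 pairs (84.5%), with a median width ratio of 1.67. Replicate 2 regions began a median of 120.5 bp later and ended 112 bp earlier. Midpoints lay a median of 141 bp apart, and within 250 bp in 286 pairs (64.1%). The median midpoint distance was 207 bp in the left arm, where paired regions were widest, 139 bp in the centre and 115 bp in the right arm. Over the pairs Spearman's rho was 0.673 for −log10 q and 0.784 for width, a description over pairs from the same 2 libraries. Replicate 1 had the lower q in 301 pairs (67.5%), and in 40 of the 73 left-arm pairs (54.8%). Of the replicate 1 regions with any overlap, 18.2% met 2 or more replicate 2 regions, against 2.03% the other way round. The most divided was 2970461 to 2978902 in the left arm, 8442 bp in replicate 1, which met 4 replicate 2 regions.

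**Figure D5:**
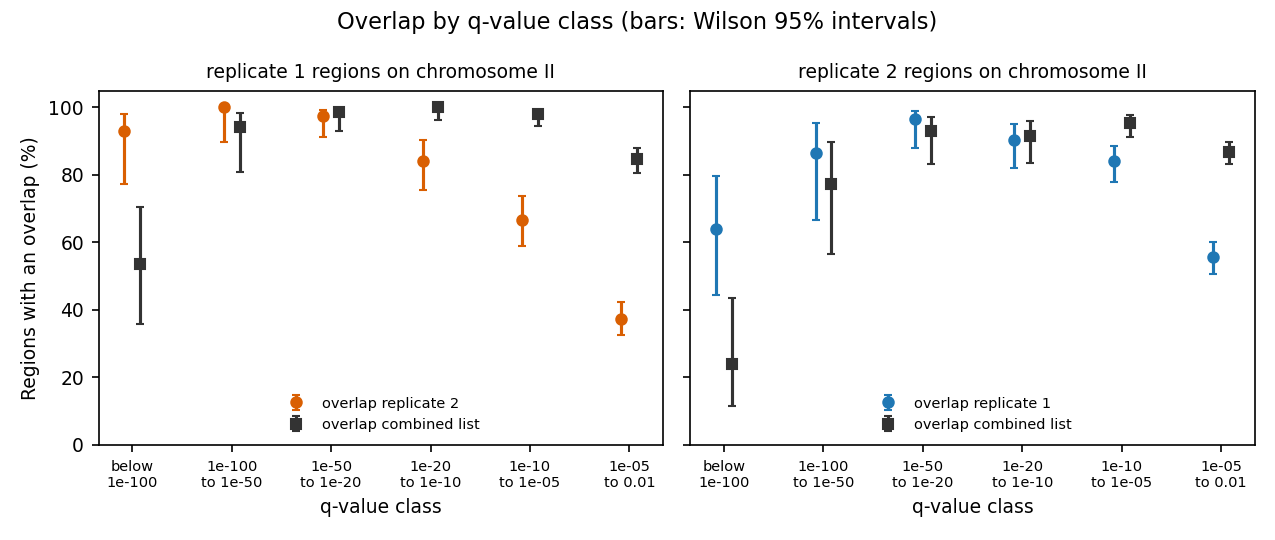
Percent of replicate 1 regions (left panel) and replicate 2 regions (right panel) of chromosome II that overlap the other replicate (circles) or the combined list (squares) by at least 1 bp, by q-value class, with Wilson 95% intervals as bars. Overlap with the combined list is lowest for the strongest class, 53.6% for replicate 1 and 24.0% for replicate 2, and the same classes on the other 5 chromosomes (not drawn) are at 68.0% and 13.4%.

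The combined list did not hold all that its replicates held. Of its 1016 regions on chromosome II, 434 overlapped both replicates (42.7%, interval 39.7 to 45.8, against 44.9% on all chromosomes), 247 replicate 1 alone (24.3%), 142 replicate 2 alone (14.0%) and 193 neither (19.0%, interval 16.7 to 21.5). On all chromosomes the last 3 shares were 26.8%, 12.2% and 16.1%. Those in both were 1071 bp wide at the median, with a median q of 1.39e-17. Those in neither were 181 bp wide at the median, with a median q of 0.00193. The regions in both made up 749 kb of the 1001 kb covered, and those in neither 43.8 kb.

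Strong regions were among those missing. Of 62 replicate 1 regions with q below 1e-50, 15 overlapped no combined region (24.2%), and of 47 in replicate 2, 24 did not (51.1%). On the other 5 chromosomes 102 of 612 such replicate 1 regions (16.7%) and 170 of 289 replicate 2 regions (58.8%) were absent, so the absence of strong regions is not particular to chromosome II. Those of chromosome II measured 68.5 kb and 95.8 kb. In all, 53.1 kb of chromosome II were covered in both replicates and not in the combined list. One such place is 9933525 to 9939054 in the centre, with q = 2.41e-293 in replicate 1, where replicate 2 had q = 9.85e-72 over 79.3% of the region. Another is 14492152 to 14495581 in the right arm, with q = 5.56e-276 in replicate 1 and q = 1.45e-130 in replicate 2. Another, 4901547 to 4909571 in the left arm, was 8025 bp wide with q = 5.22e-182 in replicate 1 and had q = 4.97e-128 in replicate 2. These 3 places were chosen after their values were seen. Of the 39 strong absent regions, 8 and 16 lay in the centre, 6 and 6 in the right arm and 1 and 2 in the left arm in replicates 1 and 2. When the 3 lists were joined, the chromosome was covered to 7.97% and the centre exceeded the arms by 3.76 points, against 2.28 points in the combined list.

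The strongest regions without a partner were also absent from the combined list. In replicate 1 the first 2 were 11755993 to 11757272 in the right arm (q = 2.52e-306) and 9335219 to 9341742 in the centre (q = 1.46e-270). The third, 5546429 to 5547803 (q = 2.87e-26), did overlap a combined region, with q = 4.67e-19. In replicate 2 all 3 lay in the centre, at 5543303 to 5544482 (q = 2.52e-279), 8785871 to 8790188 (q = 2.64e-268) and 8819208 to 8821325 (q = 1.74e-249). Since such places are missing from a list called on both replicates merged, a missing partner at this strength is not shown to be a difference between the replicates.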

How the data were processed

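The members, parts and measures were chosen with earlier results of these data known. Regions were called with PeakSeq against WormBase WS220, per the file headers, and carry the authors' deposited q-values. Alignment was by Eland and the merged input was the control, per the deposited investigation file and sample table, so the lists share a control and hold no value for input. Versions are not given in the sources used here. ChIP read counts come from the deposited sample table. The inputs have 2 runs each and their depth is not used here. Comment lines show that the authors moved coordinates from an earlier build, which changed the internal structure of 4 combined, 5 replicate 1 and 3 replicate 2 regions on chromosome II and their width by 1 bp each. Positions are 1-based.

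Covered bases, widths, gaps, windows of 250 kb and overlaps of at least 1 bp were obtained in Python (3.11.15) from pandas (2.3.3), scipy (1.17.1) and numpy (2.4.6). Intervals of shares are Wilson 95% intervals and reflect counting error alone. The code was checked on simulated data of 1000 regions, where it recovered 3 of 3 planted overlap shares. No test across samples was made, since 2 lists give 1 value each. The regions named are the 10 lowest q-values, the 5 widest, the first and last, those at the borders of the centre, the 5 longest gaps, the 3 fullest and 3 emptiest windows, and the 3 lowest q-values without partner in each replicate. Others, among them the islands, the longest run and the most divided region, were chosen after their values were seen. Gene positions were not used, since the gene table at hand describes another build.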

Additional observations from a re-analysis of the deposited data

How the results depend on the processing

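Of 44 alternative values for 8 results, 28 stayed within the spread of the replicates or within the counting interval, 16 moved and 0 reversed. A reversal is a change of sign, which was possible only for the difference of centre and arms. The spread was taken from the same 2 replicate lists that serve as alternatives, so their values are not independent of it. The replicate lists alone gave 4.12% to 6.04% cover, a difference of centre and arms of 2.30 to 2.73 points, a median width of 442 to 641 bp, a median gap of 5087.5 to 6804 bp and a longest gap of 463170 to 682441 bp. Joining the 3 lists gave 7.97% cover and a difference of 3.76 points. Keeping the 50% of combined regions with lower q gave a median width of 982 bp, a median gap of 10496 bp and a longest gap of 682257 bp. Between the stronger 50% of each replicate list, 63.7% of replicate 1 regions overlapped replicate 2. Merging regions less than 500 bp apart gave a median gap of 6594 bp by construction, and 46.4% of combined regions then overlapped both replicates. With overlap of 50% of both regions required, the shares fell to 32.3% of replicate 1, 31.5% of replicate 2 and 21.9% of combined regions. Leaving out narrow regions moved none of the 8 results. The central 50% of the length (2.48 points), run only for the difference of centre and arms, did not move it. Clipping at the borders (2.28 points), also run only there, could not change it, because no combined region crosses a border of the centre. That value is counted among the 28. Read depth differs between the replicates, and what it limits was not tested. No paired analysis was possible because input regions were not analysed here, and the ChIP replicates are the only members of their group.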

Other observations

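The regions in these paragraphs were chosen after their values were seen. Some regions of chromosome II with q below 1e-100 were narrower than 1500 bp, 4 of 46 in the combined list, 2 of 28 in replicate 1 and 3 of 25 in replicate 2. One stood in all 3 lists with nearly the same borders. It lay in the centre at 5844532 to 5845325 (794 bp, q = 1.76e-191) and had 778 bp with q = 8.44e-156 in replicate 1 and 747 bp with q = 1.84e-183 in replicate 2. Another, 11759121 to 11759732 in the right arm, measured 612 bp (q = 2.95e-175), with 598 bp in replicate 1 and 613 bp in replicate 2. In contrast to most pairs on the chromosome, its q was lower in replicate 2 (3.23e-167) than in replicate 1 (6.55e-77), as for the region at 5844532. The remaining pair was 12944351 to 12945091 (741 bp, q = 1.27e-124) and 11880093 to 11881221 (1129 bp, q = 2.92e-101), both in the right arm and both found in each replicate. The region at 11880093 also had the lower q in replicate 2 (2.64e-61 against 2.27e-37), and that at 12944351 in replicate 1 (1.18e-92 against 4.33e-50). The narrow replicate regions at 11755993 (1280 bp, replicate 1) and 5543303 (1180 bp, replicate 2), which no other list holds, have the lowest q on chromosome II in their lists. What these places encode was not examined.

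The broad region with the highest q-value in the combined list, 1149032 to 1153547 in the left arm, measured 4516 bp with q = 0.00204. Replicate 1 listed 1955 bp of it (q = 3.03e-07) and replicate 2 listed 921 bp (q = 2.53e-11), both with a lower q than the combined region.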
